A study of Mus musculus with 158 samples.

Results

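Hairpins against Ctnnb1, which encodes beta-catenin, and against Acvr1b, which encodes the activin receptor ALK4, were followed through a pooled knockdown screen in PDA530 Met cells. Every hairpin that the deposited tables assign to either gene was taken, which gave 6 of the 1000 targeting hairpins of the screen, 3 against Ctnnb1 (NM_007614) and 3 against Acvr1b (NM_007395). Pool 1 held 5 of them, TRCN0000012690 and TRCN0000012692 against Ctnnb1 and TRCN0000022575, TRCN0000022576 and TRCN0000022577 against Acvr1b. Pool 2 held TRCN0000012689 against Ctnnb1. Each hairpin was read only in the libraries of its own pool and set against the other targeting hairpins of that pool, of which each pool had 52 in all.

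PDA530 Met is a mouse pancreatic adenocarcinoma line that the labels describe as coming from a liver metastasis. The screen divided its hairpins over 19 pools, each with the same 8 control hairpins. All cells used here had been infected with a pool of hairpin virus at a multiplicity of infection of 0.3 and selected in puromycin at 3 µg/ml for 4 days. Day 0 libraries came from a pellet of these cells, culture libraries from cells kept in vitro for 28 days, and lung libraries from tumours harvested 28 days after tail-vein injection into 3 mice per pool. No further treatment or genotype separates the groups, and the labels used here do not give the strain, genotype or age of the host mice. All tumours of 1 mouse were pooled into 1 sample, so a lung value stands for a whole mouse and not for single tumours.

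Beta-catenin carries the canonical Wnt signal. It is bound and marked for destruction by a complex that includes the scaffolds APC and axin, and when Wnt ligands stop this complex it enters the nucleus and acts with TCF/LEF factors on target genes. The same protein also links cadherins to alpha-catenin at adherens junctions. ALK4 is a type I receptor kinase which, joined by a type II receptor on binding activin, phosphorylates SMAD2 and SMAD3, and these act together with SMAD4. Loss of SMAD4, the shared partner of activin and TGF-beta signalling, is common in pancreatic ductal adenocarcinoma. A short hairpin RNA integrates into the genome of the infected cell, so its read share in genomic DNA follows the share of cells that carry it. It does not show how far the target was lowered, and knockdown by these 6 hairpins was not analysed here.

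There were 3 libraries in each arm of each pool, named by pool and letter. The culture libraries were made from cells of pools 1 and 2 together and served both pools. Reads of pool 1 targeting hairpins numbered between 4983059 and 18145069 in day 0 and culture libraries, and between 225640 and 10113308 in lungs, where library 1A was the shallowest. Pool 2 libraries held between 1106838 and 10617600 such reads, with lung library 2B the lowest. Hairpins were amplified by PCR without molecular identifiers, so counting error is only part of the error of a share. The labels do not say whether the 3 day 0 libraries of a pool came from separate infections, so the p-values measure the spread between these libraries. Cell type markers could not be checked because the reads are hairpins in genomic DNA.

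In pool 1 one hairpin against Lama1, a laminin chain, took a large and changing part of the reads, which enters the share of every other hairpin. TRCN0000094205 took 22.0% to 23.2% of the pool's targeting reads at day 0, 24.3% to 25.8% in culture and 57.1% to 66.6% in lungs. Fold changes are therefore given on log2 CPM (read counts brought to a fixed total of the pool's targeting reads) scaled with TMM factors, which set the bulk of the hairpins as the reference. On that scale the median pool 1 hairpin differed by -0.25 between lungs and day 0, against -1.33 when reads were divided by the pool's total alone. The medians of pool 2 were -0.11 and -0.48. Raw shares of the pool are given beside each change, because they and the TMM scale can differ in direction.

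All 3 hairpins against Ctnnb1 were lower in lung tumours than at day 0, by 3.95-fold to 8.15-fold, and 2 of the 3 hairpins against Acvr1b were lower, by 5.30-fold and 69.8-fold. The larger value, that of TRCN0000022576, includes a lung library with 0 reads: its log2 difference was -6.13 with that library and -4.45 without it. The third Acvr1b hairpin did not pass the test. With a Benjamini-Hochberg adjusted p under 0.05 in limma as the threshold, 5 of the 6 hairpins were called lower in lungs and 0 higher. Over the whole screen the same test called 301 of 891 hairpins in either direction (33.8%), 170 lower (19.1%) and 131 higher (14.7%). In pool 1 it called 28.8% of 52 hairpins lower and in pool 2 15.4%. The median log2 difference of the 6 hairpins was -2.32, beside -0.13 over all hairpins tested. None of the 6 was higher at an unadjusted p under 0.05, and edgeR, which called 31.3% of all hairpins in either direction, also called 0 of them higher. In raw shares, all 6 were lower in every lung library than in every day 0 library of their pool, beside 45.8% of hairpins over the screen and 58.7% of the hairpins of pools 1 and 2.

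Ctnnb1 hairpin TRCN0000012692 started as the sixth most abundant hairpin of pool 1. It made up 3.58%, 3.35% and 3.24% of the pool's targeting reads in day 0 libraries 1A, 1B and 1C. In lung libraries 1A, 1B and 1C it made up 0.267%, 0.424% and 0.582%. The lung shares were far below the day 0 shares and did not overlap them. Its rank among the 52 hairpins went from 6 to between 19 and 28. The log2 difference between lungs and day 0 was -1.98 ± 0.26 (SE, n = 3 libraries an arm), limma adjusted p = 0.00279.

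Ctnnb1 hairpin TRCN0000012690 made up 1.24%, 1.18% and 1.54% of pool 1 in day 0 libraries 1A, 1B and 1C. Its shares in lung libraries 1A, 1B and 1C were 0.198%, 0.0892% and 0.128%. The highest lung share came from the shallow library 1A, and it still lay below every day 0 share. The log2 difference was -2.23 ± 0.44 (SE, n = 3 libraries an arm), limma adjusted p = 0.0122. Without lung library 1A, a setting chosen after seeing the data, it was -2.56 with a limma adjusted p of 0.00502.

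The Ctnnb1 hairpin of pool 2, TRCN0000012689, gave 1.06%, 1.23% and 1.21% of that pool's targeting reads in day 0 libraries 2A, 2B and 2C. In lung libraries 2A, 2B and 2C it gave 0.112%, 0.0828% and 0.146%. The 3 mice were close to each other and all lay well under day 0. Of the 52 hairpins of pool 2 it had the third lowest log2 difference, -3.03 ± 0.31 (SE, n = 3 libraries an arm), limma adjusted p = 0.000314. This hairpin has its own virus pool, cells and mice, apart from those of the Ctnnb1 hairpins in pool 1.

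Beta-catenin thus had every one of its hairpins called lower in lungs, in both pools. Over the screen 242 genes had at least 3 tested hairpins, and all tested hairpins were called lower for 1 of them (0.413%), Ctnnb1. Only 115 of these genes had 3 tested hairpins as Ctnnb1 did, and with more hairpins it is harder to have all called. At least 2 hairpins were called lower for 26 of the 242 genes (10.7%), Acvr1b among them. These counts are descriptive, since the genes were picked with results of the screen known. Under all 17 alternative settings run for this comparison the 3 Ctnnb1 hairpins were all called lower, and the number of genes of which that held ranged from 1 to 6.

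The Acvr1b hairpins did not move as a group. TRCN0000022577 made up 0.708%, 0.697% and 0.810% of pool 1 in day 0 libraries 1A, 1B and 1C. In lung libraries 1A, 1B and 1C it made up 0.0647%, 0.159% and 0.0272%. All lung shares were below all day 0 shares, and they differed widely among the 3 mice, with library 1B the highest and 1C the lowest. The log2 difference between lungs and day 0 was -2.40 ± 0.57 (SE, n = 3 libraries an arm), limma adjusted p = 0.0231. Leaving out the day 0 libraries of any 1 letter, in all pools at once, ended this call. Limma adjusted p-values were then 0.0615 to 0.0685 at log2 differences of -2.35 to -2.45. Calls over the whole screen fell as well, from 301 to between 148 and 160. Without lung library 1C the log2 difference was -1.77, and without lung library 1B it was -2.78.

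Acvr1b hairpin TRCN0000022576 was scarce from the start and nearly vanished in the lungs. It had 14306, 8793 and 6341 reads in day 0 libraries 1A, 1B and 1C, or 0.0788%, 0.106% and 0.0819% of the pool. Lung libraries 1A, 1B and 1C held 0, 185 and 96 reads. The 185 reads of lung library 1B were 0.00183% of the pool, with an exact (Clopper-Pearson) 95% interval of 0.00158% to 0.00211%. The 96 reads of 1C were 0.00192% (0.00156% to 0.00235%). A count of 0 in library 1A allows a share of up to 0.00133%, by the limit of 3 reads. The limit of 3 reads lay below the intervals of both others, while the exact 95% upper bound for library 1A, 0.00163%, reached into them. Whether the 3 lung libraries differ from each other was not tested. All lay far below every day 0 share.

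That hairpin had the lowest log2 difference of pool 1, -6.13 ± 1.33 (SE, n = 3 libraries an arm), limma adjusted p = 0.0174. Its size moved with the lung library left out. Without library 1A, which had 0 reads, the log2 difference was -4.45, limma adjusted p = 0.000523. Without 1B it was -6.70 and without 1C -7.05, and edgeR on all libraries gave -4.86, adjusted p = 0.0029. The call was lost when the day 0 libraries of letter B (-5.96, limma adjusted p = 0.0538) or letter C (-6.15, limma adjusted p = 0.0521) were left out in all pools. The log2 difference was then nearly the same.

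The remaining Acvr1b hairpin, TRCN0000022575, went the other way on the TMM scale. It made up 0.163%, 0.171% and 0.207% of pool 1 in day 0 libraries 1A, 1B and 1C. Lung libraries 1A, 1B and 1C held 0.143%, 0.127% and 0.0959%. As raw shares the lungs were lower and did not overlap day 0. On the TMM scale the arms overlapped, with 1149 to 1397 CPM at day 0 and 1382 to 2578 CPM in lungs. The log2 difference was 0.51 (95% interval -0.24 to 1.26, n = 3 libraries an arm), which did not pass the test (limma adjusted p = 0.253). Divided by pool totals it was -0.57, limma adjusted p = 0.205, so its direction depends on the scaling.

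Culture against day 0 asked which hairpins changed without the passage through a mouse. The comparison shares its day 0 libraries with the previous one, so the 2 sets of values are not independent. The 3 Ctnnb1 hairpins and 2 of the 3 Acvr1b hairpins were called lower in culture, by 1.24-fold to 6.23-fold. These 5 of 6 stand beside 573 of 945 hairpins that limma called in either direction (60.6%), 301 lower (31.9%) and 272 higher (28.8%). In each of pools 1 and 2, 36.5% of 52 hairpins were called lower. The median log2 difference of the 6 hairpins was -1.30, beside -0.10 over all hairpins tested. limma and edgeR, the latter with 58.5% of all hairpins called, called 0 of the 6 higher, and 0 were higher at an unadjusted p under 0.05. In raw shares all 6 were below day 0 in every culture library, beside 50.6% of hairpins over the screen and 55.8% of those in pools 1 and 2.

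TRCN0000012689 against Ctnnb1 had the largest drop of the 6 in culture. It fell to 0.140%, 0.114% and 0.142% of pool 2 in culture libraries 1/2A, 1/2B and 1/2C, from the shares above 1% at day 0. The 3 cultures were nearly alike and lay in the range of the lung shares of the same hairpin. The log2 difference was -2.64 ± 0.19 (SE, n = 3 libraries an arm), limma adjusted p = 1.79e-13. In this fit limma's prior degrees of freedom for pool 2 were 27.2, so a p this small rests largely on the spread of the pool's other hairpins. edgeR gave -2.63 with an adjusted p of 4.5e-09.

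TRCN0000012692 against Ctnnb1 made up 1.24%, 1.11% and 1.40% of pool 1 in culture libraries 1/2A, 1/2B and 1/2C, between its day 0 and its lung shares and overlapping neither. Its log2 difference was -1.06 ± 0.08 (SE, n = 3 libraries an arm), limma adjusted p = 1.39e-05. TRCN0000012690, the other Ctnnb1 hairpin of that pool, made up 0.822%, 0.704% and 0.910% in the same cultures. These shares were below every day 0 share, but much of that gap was shared by the pool. Divided by pool totals the log2 difference was -0.70, against -0.54 for the median hairpin of pool 1. On the TMM scale the log2 difference was -0.31 (95% interval -0.57 to -0.06), limma adjusted p = 0.0401. That call ended when the day 0 libraries of letter A, B or C were left out in all pools (limma adjusted p 0.290, 0.131 and 0.427, log2 differences -0.18, -0.25 and -0.12). It also ended without the culture libraries of letter A (limma adjusted p 0.0508), with DESeq2 size factors (0.0628) and with all arms in 1 fit (0.587). Relative to the median hairpin of its pool the log2 difference was -0.16.

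Ctnnb1 had all 3 hairpins called lower in culture too, which held for 7 of the 259 genes with at least 3 tested hairpins (2.7%). It did not hold under the 6 alternatives in which TRCN0000012690 lost its call. At least 2 hairpins were called lower in culture for 86 of these genes (33.2%), Acvr1b among them.

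For Acvr1b, TRCN0000022577 made up 0.215%, 0.167% and 0.197% of pool 1 in culture libraries 1/2A, 1/2B and 1/2C. All 3 were below day 0, and all 3 were above the lung shares. The log2 difference was -1.55 ± 0.14 (SE, n = 3 libraries an arm), limma adjusted p = 4.06e-05, and every alternative setting run kept this call. TRCN0000022576 had 1795, 1366 and 1824 reads, or 0.0135%, 0.0235% and 0.0366% of the pool. Those shares were all below day 0 and all above the lungs. Its log2 difference was -1.57 ± 0.35 (SE, n = 3 libraries an arm), limma adjusted p = 0.00572. The call was lost without the day 0 libraries of letter B in all pools (limma adjusted p = 0.0602) and with all arms in 1 fit (limma adjusted p = 0.333 at -1.53). The technical repeat of culture library 1/2A gave 0.0194% against 0.00843% in the first run of the same library, so a rare hairpin can move by more than its counting error between repeats.

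TRCN0000022575 against Acvr1b made up 0.121%, 0.0734% and 0.157% of pool 1 in culture libraries 1/2A, 1/2B and 1/2C. As raw shares these were below day 0 without overlap, and on the TMM scale they overlapped it. The log2 difference was -0.29 (95% interval -0.88 to 0.29, n = 3 libraries an arm), limma adjusted p = 0.339. It was called lower on the control total (-1.25, limma adjusted p = 0.00419) and on the deposited scale (-0.93, limma adjusted p = 0.0139). The pool 1 median was itself -1.10 and -0.79 on these scales, so most of that fall was shared by the pool. With TMM scaling neither the lung nor the culture difference from day 0 of this hairpin passed the test.

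The direct comparison of lungs with culture asked where the mouse and the dish differed over the same 28 days. Only 2 of the 6 hairpins were called lower in lungs, TRCN0000012690 against Ctnnb1 and TRCN0000022576 against Acvr1b. limma called 221 of 889 hairpins in either direction (24.9%), 118 lower (13.3%) and 103 higher (11.6%), and in each of pools 1 and 2 it called 15.4% of 52 hairpins lower. The median log2 difference of the 6 hairpins was -0.57, beside -0.11 over all tested. limma and edgeR, the latter with 25% of all hairpins called, called 0 of the 6 higher, and 1, TRCN0000022575, was higher at an unadjusted p under 0.05. In raw shares 4 of the 6 were lower in every lung than in every culture library, beside 22.9% of hairpins over the screen and 41.3% of those in pools 1 and 2.

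TRCN0000012690 was 3.04-fold lower in lungs than in culture, a log2 difference of -1.61 ± 0.46 (SE, n = 3 libraries an arm), limma adjusted p = 0.0218. TRCN0000022576 was 18.8-fold lower, a log2 difference of -4.23 ± 1.36 (SE), limma adjusted p = 0.0377. Without lung library 1A the latter was -2.73, limma adjusted p = 0.00994, and the former was -2.10, limma adjusted p = 0.00221. Without the lung libraries of letter B or C the latter was -4.94 or -5.24, and the former -1.29 or -1.77. Both calls were lost when the culture libraries of any 1 letter were left out in all pools. Limma adjusted p-values were then 0.0546 to 0.112 for TRCN0000012690 and 0.110 to 0.131 for TRCN0000022576. The log2 differences were then -1.51 to -1.71 and -3.91 to -4.49. Both calls were also lost when reads were scaled on the 8 control hairpins. The log2 differences were then -0.70 and -3.44, with limma adjusted p-values of 0.230 and 0.132. That scaling raises every log2 difference between lungs and culture, because culture libraries hold the controls of both pools. The pool 1 median was 0.88 on it, against -0.02 with TMM, so these losses cannot be told apart from the offset. The call of TRCN0000022576 was lost on the deposited scale as well (-5.57, limma adjusted p = 0.0819) and without technical repeats (-4.01, limma adjusted p = 0.0713).

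The other 4 hairpins did not pass this test with TMM scaling. For Ctnnb1 hairpin TRCN0000012689 the log2 difference was -0.16 (95% interval -0.86 to 0.55), limma adjusted p = 0.724, and its lung and culture shares overlapped. That interval spans less than 2-fold in either direction. Scaled on the control hairpins, of which the culture libraries hold those of both pools, the pool 2 median was 1.56. The log2 difference of TRCN0000012689 was then 1.47 and was called higher (limma adjusted p = 0.0196). For TRCN0000012692 it was -0.61 (95% interval -1.27 to 0.06), limma adjusted p = 0.173, although its raw shares did not overlap. Without the lung libraries of letter C it reached -1.06, limma adjusted p = 0.0126, and with pool totals -1.62, limma adjusted p = 0.00537. For Acvr1b hairpin TRCN0000022577 it was -0.54 (95% interval -1.68 to 0.60), limma adjusted p = 0.468, although its raw shares did not overlap. That value was -1.14 without the lung libraries of letter B (limma adjusted p = 0.0957) and -0.09 without those of letter C (limma adjusted p = 0.860). TRCN0000022575 had a log2 difference of 1.12 (95% interval 0.22 to 2.02 before adjustment), limma adjusted p = 0.0677, and its raw shares overlapped. It was called higher on the control total (2.02, limma adjusted p = 0.00478), where the pool 1 median was 0.88. It was also called higher with all arms in 1 fit (1.01, limma adjusted p = 0.0355). With pool totals it was 0.11 (limma adjusted p = 0.864). For lungs against culture, Ctnnb1 and Acvr1b had 1 hairpin each called lower. At least 2 hairpins were called lower for 18 of 241 genes (7.47%) and all of them for 1 gene (0.415%), neither gene among them.

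Hairpins of one gene in the same library share its depth and its scaling, so their ratio shows unequal change without any normalisation. The log2 ratio of TRCN0000022575 over TRCN0000022576, both against Acvr1b, was 1.02 ± 0.33 at day 0, 2.30 ± 0.78 in culture and 6.69 ± 1.45 in lungs (mean ± SD of 3 libraries, with 1 read added to each count). No library of one arm overlapped another arm. The lung mean includes library 1A, whose 0 reads of TRCN0000022576 leave its ratio set by the added read. The difference between lungs and day 0 was 5.67, against 4.51 with 10 reads added and 4.85 without lung library A. For TRCN0000022575 over TRCN0000022577 the log2 ratio was -2.04 ± 0.07 at day 0, -0.78 ± 0.43 in culture and 0.88 ± 1.10 in lungs. Day 0 stood apart from both other arms, while the highest culture ratio and the lowest lung ratio were both -0.33. The difference between lungs and day 0 was 2.92, and 2.45 to 3.52 with 1 lung library left out. Each step between arms for these pairs had a two-sided exact permutation p of 0.1, the smallest that 3 against 3 libraries allow, and an adjusted p of 0.15 over the 12 ratios and comparisons tested. No ratio could pass the threshold in this design.

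TRCN0000022576 and TRCN0000022577, the Acvr1b hairpins that fell, had a log2 ratio of -3.06 ± 0.31 at day 0 and -3.08 ± 0.81 in culture, and the arms overlapped (exact permutation p = 1, adjusted p = 1). The difference of -0.02 ranged from -0.35 to 0.43 when 1 library was left out. In lungs the ratio was -5.81 ± 1.78, a difference from day 0 of -2.75 (exact permutation p = 0.1, adjusted p = 0.15). That difference, which includes the 0 reads of TRCN0000022576 in lung library 1A, was -1.61 when 10 reads were added in place of 1, -2.06 without lung library A and -3.76 without lung library C. For the Ctnnb1 pair TRCN0000012690 over TRCN0000012692 the log2 ratio was -1.37 ± 0.26 at day 0, -0.62 ± 0.03 in culture and -1.62 ± 1.03 in lungs. It was higher in every culture library than in every day 0 library (exact permutation p = 0.1, adjusted p = 0.15), and the lungs overlapped day 0 (exact permutation p = 0.6, adjusted p = 0.655). In the lungs the 3 mice spread from -2.25 to -0.43.

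Profiles over the 9 libraries of pool 1 on the log2 CPM scale are given as a description, with arms in common and no test. The 2 Ctnnb1 hairpins of pool 1 had a Pearson r of 0.74 over 9 libraries. TRCN0000022576 and TRCN0000022577 against Acvr1b had 0.62, while TRCN0000022575 had -0.75 with the former and -0.34 with the latter. Across the genes, TRCN0000012692 had 0.88 with TRCN0000022576, 0.66 with TRCN0000022577 and -0.50 with TRCN0000022575. TRCN0000012690 had 0.65, 0.56 and -0.51 with the same Acvr1b hairpins.

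The hairpins of other genes most like each member were picked by the highest Pearson r over the 9 libraries of the pool, among 52 hairpins. For TRCN0000012690 these were TRCN0000094206 against Lama1 (0.96) and TRCN0000087306 against Csmd3 (0.95). For TRCN0000012692 they were TRCN0000068114 against Il2rg (0.93) and TRCN0000087307 against Csmd3 (0.91). TRCN0000022576 had TRCN0000068114 against Il2rg (0.89) and TRCN0000075393 against Peg3 (0.88), and TRCN0000022577 had TRCN0000068117 against Il2rg (0.86) and the same Peg3 hairpin (0.85). TRCN0000022575 was most like TRCN0000094205, the dominant Lama1 hairpin of the lungs (0.74), and TRCN0000075396 against Peg3 (0.73). In pool 2, TRCN0000012689 was most like TRCN0000108856 against Muc1 (0.93).

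Control hairpins on the same scale show how far a hairpin with no intended target in these cells could move between lungs and day 0. In pool 1 the log2 difference between lungs and day 0 was 0.33 for the first non-targeting control, -1.26 for the GFP control and -4.56 for the second non-targeting control. In pool 2 these were -0.01, -0.75 and -3.44. In its own pool the second non-targeting control had a lower value than every Ctnnb1 and Acvr1b hairpin except TRCN0000022576. The control hairpin named for MUC1, whose match to the mouse gene was not examined here, gave -2.27 in pool 1 and -2.21 in pool 2, beside -2.23 and -1.98 for the Ctnnb1 hairpins of pool 1. Culture libraries held the controls of both pools, but control CPM was taken over the targeting reads of 1 pool. Of all culture reads, pool 1 targeting hairpins made up 43.6% to 50.9% and those of pool 2 32.8% to 41.0%. Control values are therefore offset upward in culture against day 0 and downward in lungs against culture. In culture against day 0 the first 3 controls gave 1.64, 0.26 and -1.87 in pool 1 and 1.97, 0.67 and -1.67 in pool 2. In lungs against culture they gave -0.99, -1.20 and -2.38 in pool 1 and -1.75, -1.19 and -1.53 in pool 2. With this offset, which was not removed, the control values against culture cannot be set beside those of the members. No test was run on the controls, which were left out of the fit.

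The destruction complex that removes beta-catenin was represented by Apc and Axin1. Apc, a scaffold of the complex, had 4 hairpins in pool 1 beside the members. TRCN0000042533 was lower in lungs than at day 0, with a log2 difference of -2.01 ± 0.26 (SE, n = 3 libraries an arm), limma adjusted p = 0.00272. The other 3 Apc hairpins lay between -0.10 and 0.62 and did not pass the test. In culture TRCN0000042533 was lower by -1.87, and TRCN0000042535 and TRCN0000042536 were higher by 1.77 and 0.37, with limma adjusted p-values of 0.000126, 2.06e-07 and 0.0391. The hairpins of Apc thus moved in both directions, and one fell about as far in lungs as TRCN0000012692 against Ctnnb1.

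Axin1, the other scaffold, had 4 hairpins in pool 4. Between lungs and day 0, TRCN0000054983 was lower by a log2 difference of -1.68 (limma adjusted p = 0.00176) and TRCN0000054986 was higher by 1.23 (limma adjusted p = 0.00555). The remaining hairpins, at -1.42 and -0.71, did not pass the test. In culture both of the former were higher, by 1.57 and 1.88, with limma adjusted p-values of 4.21e-05 and 5.13e-06, and TRCN0000054984 had a log2 difference of -1.22 (limma adjusted p = 0.0454, edgeR adjusted p = 0.0740).

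Over 8 Wnt-related genes other than Ctnnb1 (Apc, Axin1, Celsr2, Crebbp, Ctnna2, Myc, Prkca and Rac1), 27 of 29 hairpins could be tested. For lungs against day 0, limma called 5 lower and 2 higher, and 20 did not pass, beside 19.1% lower and 14.7% higher over all hairpins. The lower ones included TRCN0000234923 against the Wnt target gene Myc (-3.61, limma adjusted p = 0.0315, edgeR adjusted p = 0.0542) and 2 hairpins against the GTPase Rac1 (-4.27 and -5.94, adjusted p = 0.0153 and 0.0102). Ctnna2, an alpha-catenin that binds beta-catenin, had 1 hairpin higher, TRCN0000108888 (1.72, adjusted p = 0.00835). The median log2 difference of the list was -0.63, beside -0.13 over all hairpins. For culture against day 0 limma called 5 lower and 6 higher, beside 31.9% and 28.8% over all hairpins, with a median of -0.12 beside -0.10. For lungs against culture it called 4 lower and 1 higher, beside 13.3% and 11.6%, with a median of -0.18 beside -0.11.

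The TGF-beta family list held Tgfbr2, the type II TGF-beta receptor, Smad4 and the target gene Id4 beside Acvr1b. Of its 10 hairpins 6 could be tested in lungs against day 0, and limma called 0 of them, 1 at an unadjusted p under 0.05, and edgeR 0. Over all hairpins limma called 33.8% in either direction and edgeR 31.3%. The median log2 difference of the list was -0.28, beside -0.13 over all hairpins. Smad4 hairpin TRCN0000025881 shared pool 1 with the Acvr1b hairpins and had -0.29 (limma adjusted p = 0.453) in lungs and -0.21 (limma adjusted p = 0.126) in culture. Tgfbr2 hairpin TRCN0000022626 of pool 2 had -1.72 (limma adjusted p = 0.1) in lungs and -0.07 (limma adjusted p = 0.912) in culture. For culture against day 0, 8 hairpins were tested and limma called 1 lower, TRCN0000294529 against Tgfbr2 (-2.01, adjusted p = 0.00519), and 1 higher, TRCN0000425323 against Id4 (1.20, adjusted p = 0.0115), with a median of -0.14 beside -0.10. Over all hairpins limma called 31.9% lower and 28.8% higher in that comparison. For lungs against culture limma called 0 of 6, 1 at an unadjusted p under 0.05, and edgeR 0, with a median of -0.37 beside -0.11. There limma called 24.9% of all hairpins in either direction and edgeR 25%. Lung values of the remaining Smad4 and Tgfbr2 hairpins were not analysed here.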

How the data were processed

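The deposited tables give, per hairpin, a scaled read signal made by the authors. BWA 0.5.9 is named in the submitters' processing notes, and how the signal was scaled is not given in the sources used here. Reads were recovered by dividing a library's signal by its smallest value, taken as 1 read, and 27241 of 27241 values (100%) came out whole within 0.01 reads. A hairpin without a row was taken as 0 reads, and technical repeats were summed.

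The planned edgeR test for raw counts gave way to limma 3.58.1 (R 4.3.3), because the deposited unit is a signal. Reads of a pool's targeting hairpins with a mean of at least 10 reads became CPM with TMM factors of edgeR 4.0.16. log2(CPM + 1), where the pseudocount weighs on changes of rare hairpins, was fitted per pool over the 2 arms compared, with a trend and robust moderation. Benjamini-Hochberg adjustment covered the whole screen in each comparison, and calls needed an adjusted p under 0.05. The edgeR quasi-likelihood test on the recovered reads was an alternative, and called 279, 553 and 222 hairpins for lungs against day 0, culture against day 0 and lungs against culture. DESeq2 1.42.0 gave other size factors. The fits were also run on simulated data, with outcomes not reported here.

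All hairpins of both genes are named, with the 2 hairpins most like each, 1 of which is not reported here. Those of the 2 pathway lists are given as counts, with some named. Members and lists were chosen with earlier results of these data known. Hairpin sequences are not printed, and 10 samples without values were not analysed here.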

Additional observations from a re-analysis of the deposited data

Results flagged for a closer look

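Reads of pool 1 hairpins appeared in lung libraries of pool 2, which are not labelled as holding them. Ctnnb1 hairpin TRCN0000012692 had 5496 reads in lung library 2A, or 582 CPM of all reads, above the 4.64 CPM of the highest pool 2 day 0 library. In lung library 2C it had 28 reads (9.48 CPM), and in 2B 0 reads. Acvr1b hairpin TRCN0000022576 had 20 reads in lung library 2A (2.12 CPM), above the 0.714 CPM of the highest day 0 library. Stray reads were not limited to lungs or to these hairpins. Acvr1b hairpin TRCN0000022577 had 1327 reads in day 0 library 2B (118 CPM), against 4.44 CPM in lung library 2A, and Ctnnb1 hairpin TRCN0000012689 of pool 2 had 1027 reads in day 0 library 1A (46.4 CPM). Over 133 libraries of other pools TRCN0000012692 had reads in 13. The cause was not tested, and no value in the report uses these reads.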

How the results depend on the processing

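Each comparison was rerun under 17 or 18 alternatives. The count of hairpins called lower in lungs against day 0 was 5 under every change of scaling, test, filter, pseudocount, replicate block and technical repeats, and 3 to 5 when 1 library letter was left out. In culture against day 0 it was 3 with all arms in 1 fit, 4 with DESeq2 size factors, 6 on the control total and on the deposited scale, 5 with the replicate block, and 3 to 5 with a letter left out. In lungs against culture it was 0 when scaled on the control total, 1 on the deposited scale, 1 without technical repeats, 3 with pool totals, 2 with the replicate block, and 0 to 3 with a letter left out. On the control total 2 members were called higher there, and with all arms in 1 fit TRCN0000022575 was. Counts on the control total that involve culture carry an offset, since culture libraries hold the controls of both pools. In culture against day 0 the pool 1 median was -1.10 on the control total and -0.79 on the deposited scale. The pool 2 median was -1.44 and -1.40. The replicate block changed no call of a member. Libraries of one letter deviated from their arm means with correlations between -0.596 and 0.591 in pools 1 and 2, so the letters were not taken as pairs.

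Scaling turned TRCN0000022575 in lungs against day 0, to -0.57 with pool totals and -0.16 on the deposited scale. In lungs against culture the control total turned TRCN0000022577 (0.36), TRCN0000012692 (0.30) and TRCN0000012689 (1.47), and the deposited scale TRCN0000012689 (0.82), which ranged from -0.35 to 0.083 with a lung letter left out. On the control total, culture libraries are scaled on the controls of both pools, which raises these values. The pool medians were then 0.88 for pool 1 and 1.56 for pool 2. With a letter left out, the log2 ratio of TRCN0000022576 over TRCN0000022577 in culture against day 0 ranged from -0.35 to 0.43. That of TRCN0000012690 over TRCN0000012692 in lungs against day 0 ranged from -0.85 to 0.059. How far that offset accounts for the turns on the control total was not tested, nor was the cause of the other changes. Higher calls made up 43.5% of all calls with TMM and 24.4% with pool totals for lungs against day 0, 47.5% and 26.5% for culture against day 0, and 46.6% against 82.4% on the control total for lungs against culture. The offset of the control total enters the 82.4%. Leaving out a day 0 letter cut all calls of lungs against day 0 from 301 to between 148 and 160, and a culture letter those of lungs against culture from 221 to between 142 and 145. All arms in 1 fit gave 364 calls in place of 573 for culture against day 0. Depth limits TRCN0000022576 in lung library 1A.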
